A study of Homo sapiens with 26 samples.

Results

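The arrays described here follow MCF10A cells treated with EGF and DEX together, and set the late times, 120 and 240 min, against the early times, 20, 40 and 60 min. They were chosen by their titles alone: 8 of the 26 arrays of the series are of EGF+DEX, 2 of them late (1 array at 120 min and 1 at 240 min) and 6 of them early (2 at each time). MCF10A cells are a long-established human line, grown from the epithelium of the breast, that does not form tumours and needs EGF to grow. The EGF+DEX cells received EGF (10 ng per ml) and dexamethasone (DEX, 100 nM), and the other groups used below received the same EGF alone, the same DEX alone (each with 2 late and 6 early arrays at the same times) or nothing (2 untreated arrays at 0 min). All groups share a growth medium that held insulin, cholera toxin, hydrocortisone, horse serum and EGF, and an overnight starvation before stimulation. Since the untreated arrays were taken at 0 min only, time in the dish and time under EGF+DEX cannot be told apart.

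EGF binds EGFR, a receptor tyrosine kinase at the cell surface, and the kinases below it switch on immediate early genes within minutes. Those genes encode transcription factors, such as FOS and EGR1, and their transcripts are short-lived, so that they fade while the delayed genes appear. DEX is a synthetic glucocorticoid that crosses the membrane and binds the glucocorticoid receptor (GR), a transcription factor that raises some genes directly, for example FKBP5 and TSC22D3, and lowers others, many of them inflammatory.

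RNA was read on human exon arrays (Affymetrix, Exon 1.0 ST), which measure each exon with a small set of probes, a probeset. Levels below are gene values on the log2 scale of the deposited intensities, so that 1 unit is a 2-fold difference, and 16600 genes were tested. A gene was called where limma gave an adjusted p below 0.05 over all genes and the difference was at least 1.5-fold. The titles tell replicates apart by number only and give no culture or batch, so p-values measure the spread between these samples, which may be technical. The lone late arrays have no replicate, and were assumed to vary like the groups of 2.

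All 10 basal epithelial markers, keratins KRT5 and KRT14 among them, lay above the 75th percentile of the probesets with no gene (5.97), with means from 9.14 to 13.00, as did 6 of 9 luminal, 4 of 7 fibroblast, 1 of 4 leukocyte and 1 of 4 endothelial markers. The summed level of the basal markers was 102.02 to 102.25 in the late arrays and 103.14 to 105.96 in the early arrays. That of the luminal markers was 63.88 to 63.92 in the late arrays and 64.06 to 66.83 in the early arrays, so that neither overlapped. The fibroblast, leukocyte and endothelial sums did overlap. Over all genes, 7.45% had both late arrays below all 6 early ones. TP63, with means of 10.02 early and 9.08 late, was the only basal marker called. The part of the markers in the results was not tested, and fewer cells of a type and less RNA per cell cannot be told apart here. Among the 8 arrays, 1 early array stood apart from its replicate on the first principal component. On the first principal component of the most variable genes (54.6% of their variance), the arrays at 120 and 240 min lay at 10.67 and 20.85, the first arrays at 20, 40 and 60 min at -7.47, -12.26 and -1.41, and the second ones at -7.86, -12.41 and 9.88. The second array at 60 min therefore lay beside the array at 120 min, and counts are given with and without it. Over all genes the 60 min replicates were not further apart than the others. The median absolute difference between replicates was 0.146 at 60 min, 0.1596 at 20 min and 0.157 at 40 min. On the second component (12.7%) the 20 min replicates lay at 1.65 and 8.60 and the 60 min ones at 0.58 and 2.38.

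Under EGF+DEX, 161 genes rose late, 0.97% of those tested, and 215 fell, 1.3% of those tested. The risers were led by SGPP2, a phosphatase that removes the signalling lipid sphingosine 1-phosphate, and by RIPOR2. The fallers were led by TNFSF10, which encodes the death ligand TRAIL, and by EGR3, an immediate early transcription factor. A 2-fold change was reached by 26 risers and 45 fallers, and the median over all genes was -0.01. An unadjusted p below 0.05 was reached by 1384 higher and 1408 lower genes.

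Both late arrays lay above all 6 early arrays in 130 of the 161 risers and below them in 181 of the 215 fallers. Over all genes, 5.48% had both late arrays above and 7.45% both below. Without the second array at 60 min, 223 genes rose, of which 152 were among the 161, and 262 fell, of which 211 were among the 215. Without the array at 240 min, 54 rose and 76 fell. Without that at 120 min, 354 rose and 247 fell, so the counts rest on 2 single arrays.

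The late change built up over the time course. As a median over the risers, the level against the untreated mean was -0.06 at 20 min, 0.04 at 40 min, 0.30 at 60 min, 0.74 at 120 min and 1.02 at 240 min under EGF+DEX. The fallers gave -0.13, 0.07, -0.39, -0.85 and -1.03 at the same times. These genes were chosen on these arrays, so the medians describe the shape and are no test. Among the risers 132 lay higher at 240 min than at 120 min, and among the fallers 135 lay lower. These 2 times have 1 array each, and over all genes the median difference between them was 0.01. The same risers stood at 0.26 and 0.32 under EGF alone at 120 and 240 min, and at 0.63 and 0.59 under DEX alone. The fallers stood at -0.22 and -0.41 under EGF alone, and at -0.53 and -0.79 under DEX alone.

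**Figure D1:**
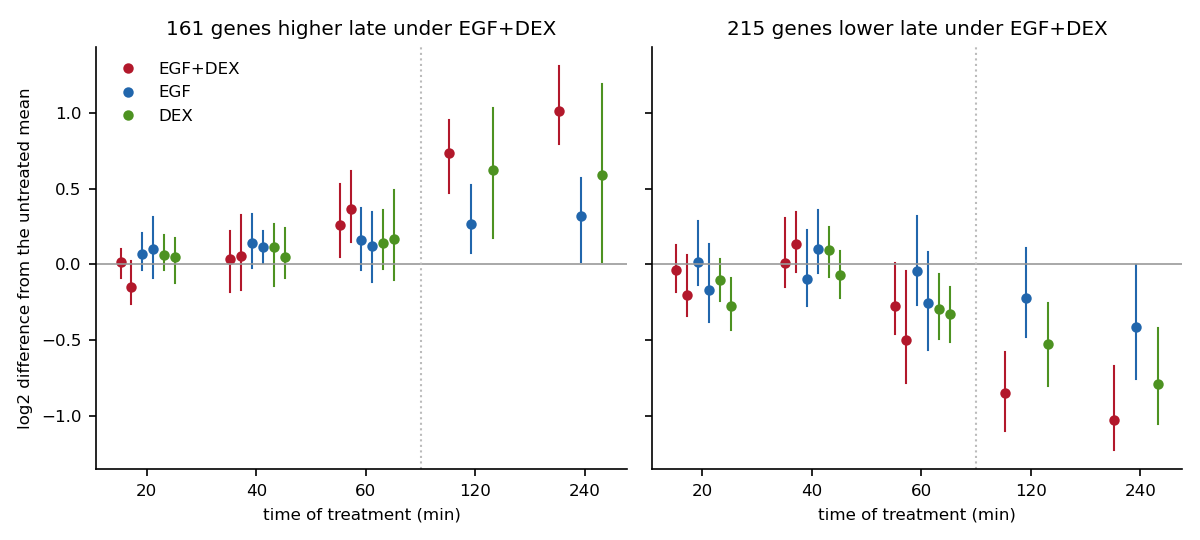
Median over the 161 genes higher late (left) and the 215 genes lower late (right) under EGF+DEX, as the log2 difference from the untreated mean, with 1 point per array and lines from the 25th to the 75th percentile of the genes; times are evenly spaced and the dotted line parts early from late. The EGF+DEX medians reach 1.02 and -1.03 at 240 min, and those of EGF alone 0.32 and -0.41.

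The 15 largest risers among genes whose late arrays cleared all early ones are described next. SGPP2 had 9.04 and 9.88 in the late arrays at 120 and 240 min, against 6.90, 7.06 and 7.58 (lowest, median and highest) in the 6 early arrays. Both late arrays lay well above the highest early one. The difference was 2.27 ± 0.12 (SE of the fit), a 4.84-fold rise with an adjusted p of 1.43e-08. RIPOR2 had 7.37 and 8.13 in the late arrays, against 5.34, 5.59 and 5.87 in the early arrays. Its 4.45-fold rise (adjusted p = 1.62e-08) began near the brightness of probesets with no gene. SLCO2A1, which encodes a prostaglandin transporter, had 7.50 and 8.05 in the late arrays, against 5.92, 6.22 and 6.36 in the early arrays, a 2.99-fold rise (adjusted p = 3.22e-07).

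TMEM63C, of a family of mechanically gated ion channels, had 8.83 and 9.36 late, against 7.21, 7.45 and 7.62 early (3.14-fold, adjusted p = 2.01e-07). KDR, the VEGF receptor best known from endothelial cells, had 6.93 and 7.23 late, against 5.30, 5.56 and 6.27 early (2.59-fold, adjusted p = 1.38e-05). IL1R1, the receptor for interleukin 1, had 8.05 in both late arrays, against 6.08, 6.96 and 7.31 early (2.43-fold, adjusted p = 9.42e-06). For these 3 genes again no early array reached a late one.

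RAPH1, the lamellipodin of the leading edge, had 8.72 and 9.16 late, against 7.13, 7.38 and 8.17 early (2.57-fold, adjusted p = 2.13e-06). ABLIM3, an actin-binding LIM protein, had 9.99 and 9.94 late, against 8.01, 8.35 and 9.11 early (2.79-fold, adjusted p = 2.51e-07). NEXN, the actin-binding protein nexilin, had 7.32 and 8.06 late, against 5.87, 6.41 and 7.21 early (2.32-fold, adjusted p = 0.000391). NEXN lost its call without the array at 240 min (difference 0.84, adjusted p = 0.113), as did PLD5, with 7.05 and 8.46 late (difference 0.62, adjusted p = 0.13 without that array). PLD5 had 6.20, 6.41 and 6.79 early, so its rise was carried by the 240 min array.

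SULT1E1, which inactivates estrogens by sulfation, and SCNN1G, the gamma subunit of the epithelial sodium channel, were already moving by 40 min. SULT1E1 had 9.76 and 10.46 late, against 7.75, 8.93 and 9.36 early (2.59-fold, adjusted p = 2e-05). SCNN1G had 8.77 and 8.75 late, against 5.99, 8.13 and 8.34 early (2.36-fold, adjusted p = 4.42e-05), and its arrays at 20 min, 6.32 and 5.99, lay near the untreated 5.79 and 5.90. With early taken as 60 min only, SCNN1G lost its call (difference 0.49, adjusted p = 0.414). The other 3 of the 15 were PXYLP1, an enzyme of proteoglycan synthesis, ETNK2, an ethanolamine kinase, and RPS6KA2, a kinase of the RSK family. PXYLP1, ETNK2 and RPS6KA2 rose by 2.87-fold, 2.8-fold and 2.52-fold.

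Of the 15 largest fallers, some had been raised early by the treatment and fell back, and others fell below their untreated level. NR4A1 did both. TNFSF10 belonged to the second kind, with 6.89 and 6.41 in the late arrays at 120 and 240 min, against 7.98, 8.87 and 9.36 (lowest, median and highest) in the early arrays. The untreated arrays both had 9.21. TNFSF10 fell by 4.49-fold (difference -2.17 ± 0.22, adjusted p = 1.38e-05), and the lowest early array was the second at 60 min. PPARGC1A, a coactivator that drives mitochondrial genes, had 6.20 and 5.72 late, against 6.80, 7.59 and 7.99 early and 7.85 and 7.66 untreated (2.97-fold lower, adjusted p = 4.64e-05). PLAU, the urokinase that activates plasmin at the surface of migrating cells, had 6.36 and 6.27 late, against 7.15, 7.80 and 7.98 early and 8.18 and 8.01 untreated (2.59-fold lower, adjusted p = 1.14e-05). All 3 genes lay below every early and untreated array at both late times.

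VAV3 had 5.63 and 5.88 late, against 6.61, 7.24 and 7.50 early and 7.66 and 7.38 untreated (2.58-fold lower, adjusted p = 1.38e-05). CYP1B1, a cytochrome P450 that hydroxylates estrogens, had 7.67 and 6.91 late, against 8.28, 8.74 and 8.97 early and 9.05 and 9.28 untreated (2.61-fold lower, adjusted p = 9.24e-06). GDF15, a stress-induced cytokine of the TGF-beta family, had 6.90 and 6.59 late, against 7.59, 8.25 and 8.52 early and 8.46 and 8.19 untreated (2.7-fold lower, adjusted p = 7.43e-06). These 3 also ended below both untreated arrays. The same held for EPHA4, an ephrin receptor (2.88-fold lower than early), BDKRB1, the inducible bradykinin receptor (2.86-fold lower), and FIBIN (3.49-fold lower), which lost its call without the array at 240 min (adjusted p = 0.0625). The late arrays of FIBIN, 5.07 and 4.86, lay below the 75th percentile of probesets with no gene, and 41 of the 215 fallers crossed the 75th percentile of those probesets downwards, while 19 of the 161 risers crossed it upwards.

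CCN2, a matricellular protein also known as CTGF, belonged to the first kind. It had 7.54 and 7.87 late, against 9.31, 9.40 and 9.57 early, with 7.44 and 7.30 in the untreated arrays (3.29-fold lower than early, adjusted p = 6.95e-07). NR4A1, an orphan nuclear receptor and immediate early gene, had 6.05 and 5.91 late, against 7.05, 7.58 and 8.15 early, with 6.21 and 6.33 untreated (3.08-fold lower, adjusted p = 7.96e-06). PTGS2, the cyclooxygenase COX-2, had 5.42 and 5.59 late, against 6.34, 6.97 and 7.47 early, with 5.70 and 5.12 untreated (2.67-fold lower, adjusted p = 0.000241). In these 3 genes all early arrays lay above the late and the untreated ones, and the late arrays of NR4A1 also lay below both untreated ones.

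**Figure D2:**
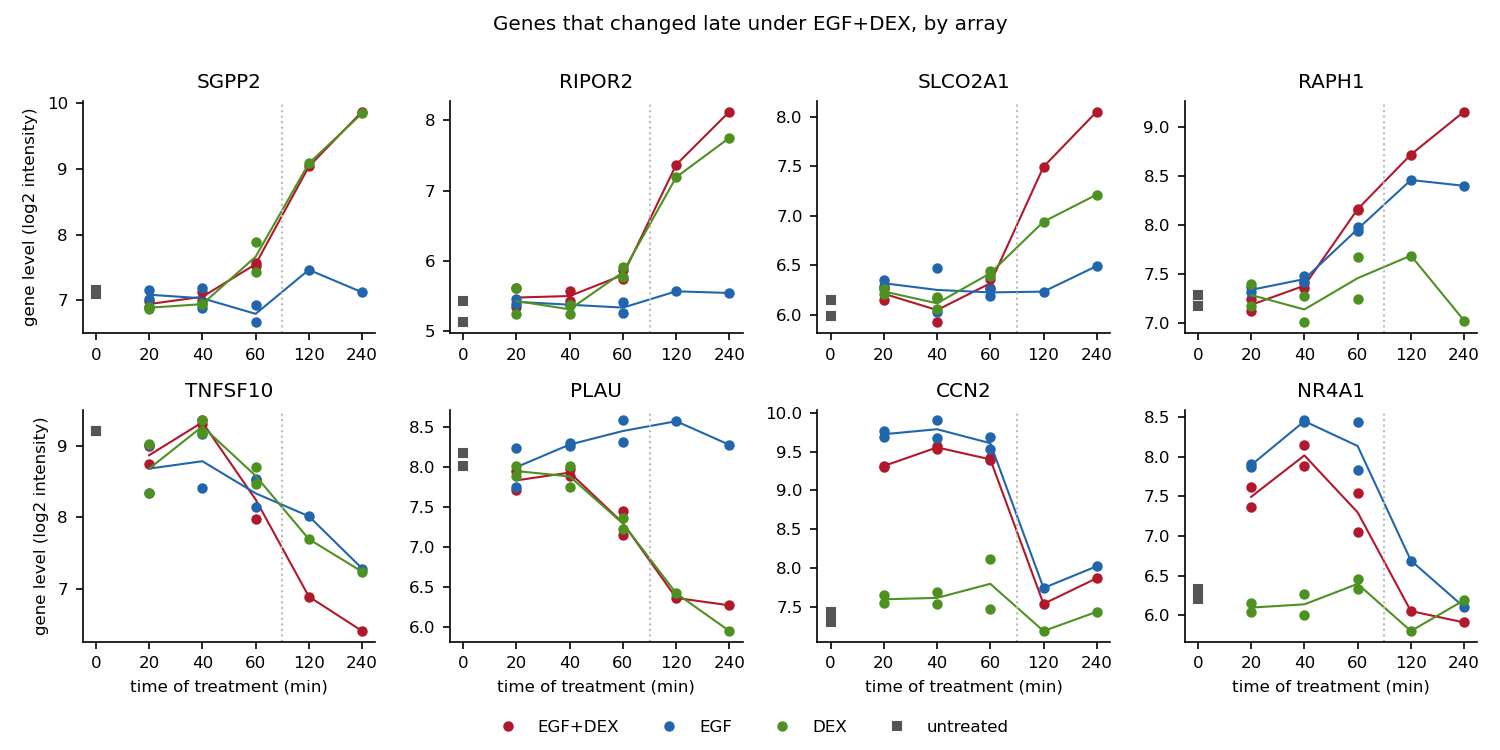
Level of 8 genes in every array of the series, in log2 intensity, against the time of treatment in min (evenly spaced, 0 for the untreated arrays); points are arrays, lines join the means at each time, and the dotted line parts early from late. SGPP2, RIPOR2, SLCO2A1 and RAPH1 lie above all their early EGF+DEX arrays at 120 and 240 min and TNFSF10, PLAU, CCN2 and NR4A1 below, and under EGF alone PLAU stays between 7.75 and 8.59.

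These 30 genes were chosen with their late arrays beyond all early ones, so the exact permutation test over the 8 arrays, whose smallest two-sided p is 0.0357, was bound to return its lowest values and is not read as support. With early taken as 60 min only, 24 of the 30 kept their call. The 6 that lost it were EGR1 (difference -1.31), EPHA4 (-0.84), FIBIN (-1.40), FOS (-0.62), NEXN (0.74) and SCNN1G (0.49). Of the 30 genes, all kept their call without the second array at 60 min, 29 without the array at 120 min (EGR1 lost it, with an adjusted p of 0.192) and 26 without the array at 240 min.

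From 120 to 240 min limma called no gene in either direction, and with a trended, robust prior it called 1 higher and 1 lower. Single arrays were set against each other there, the lowest adjusted p was 0.0552, and 974 genes were higher and 655 lower at an unadjusted p below 0.05. The largest of these differences among the genes above were in EGR1, with 10.82 at 240 min against 9.39 at 120 min (difference 1.42 ± 0.42, adjusted p = 0.371), and in PLD5, with 8.46 against 7.05 (1.41 ± 0.23, adjusted p = 0.0798).

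The counts of list members below stand beside 0.97% of all genes called higher and 1.3% called lower under EGF+DEX. Of the called members outside the 30 genes above, 35 were refitted with arrays left out. Without the array at 240 min, 22 of the 35 lost their call: ANGPTL4, BHLHE40, CIART, DUSP4, EPGN, GADD45A, GLUL, HBEGF, IFIT3, IL1B, LYAR, NRG1, PER2, PHLDA1, PIK3R1, RCL1, RRS1, SESN3, SLC2A1, SREBF1, WDR3 and ZEB2. Without the array at 120 min 10 did (BCL3, BHLHE40, DUSP5, EPGN, HBEGF, PER2, PIK3R3, REL, RRS1 and TNFAIP3), without the second array at 60 min 1 did (NRG1), and with early taken as 60 min only 30 did.

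Of all the lists, immediate early transcription factors had the most late fallers. Of 29 measured, 13 fell and none rose (FOS, JUN, EGR1, EGR3, NR4A1, NR4A2, IER2, KLF6, KLF10, BHLHE40, HES1, ID1 and ID3), and the median of the list was -0.47, against -0.01 over all genes. FOS, a subunit of the AP-1 factor, had 7.67 and 7.33 late, against 7.99, 9.29 and 9.74 early (2.91-fold lower, adjusted p = 0.0025), and 6.59 and 6.20 in the untreated arrays. Its call was lost without the array at 240 min (adjusted p = 0.0987), and with early taken as 60 min only (difference -0.62, adjusted p = 0.889). Its arrays at 60 min, 8.25 and 7.99, already lay below those at 20 and 40 min, 9.29 to 9.74. EGR1, a zinc finger factor, had 9.39 and 10.82 late, against 11.37, 11.48 and 11.94 early (2.82-fold lower, adjusted p = 0.00142), with 9.69 and 9.61 untreated. EGR3 had 5.39 and 6.28 late, against 6.93, 7.88 and 9.13 early (4.38-fold lower, adjusted p = 0.000264), with 6.28 and 5.84 untreated. ID1 and ID3, inhibitors of helix-loop-helix factors, differed by -0.96 and -1.23. FOSL1 (0.15, adjusted p = 0.69), FOSL2 (-0.08, adjusted p = 0.8), SRF (-0.22, adjusted p = 0.31) and ATF3 (-0.25, adjusted p = 0.22) did not pass the test. Under EGF alone 14 of the 29 fell and none rose (median -0.68), where 0.331% of all genes fell, and under DEX alone 4 fell and 1, FOSL2, rose (median -0.21), where 1.19% of all genes fell and 1.16% rose.

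**Figure D3:**
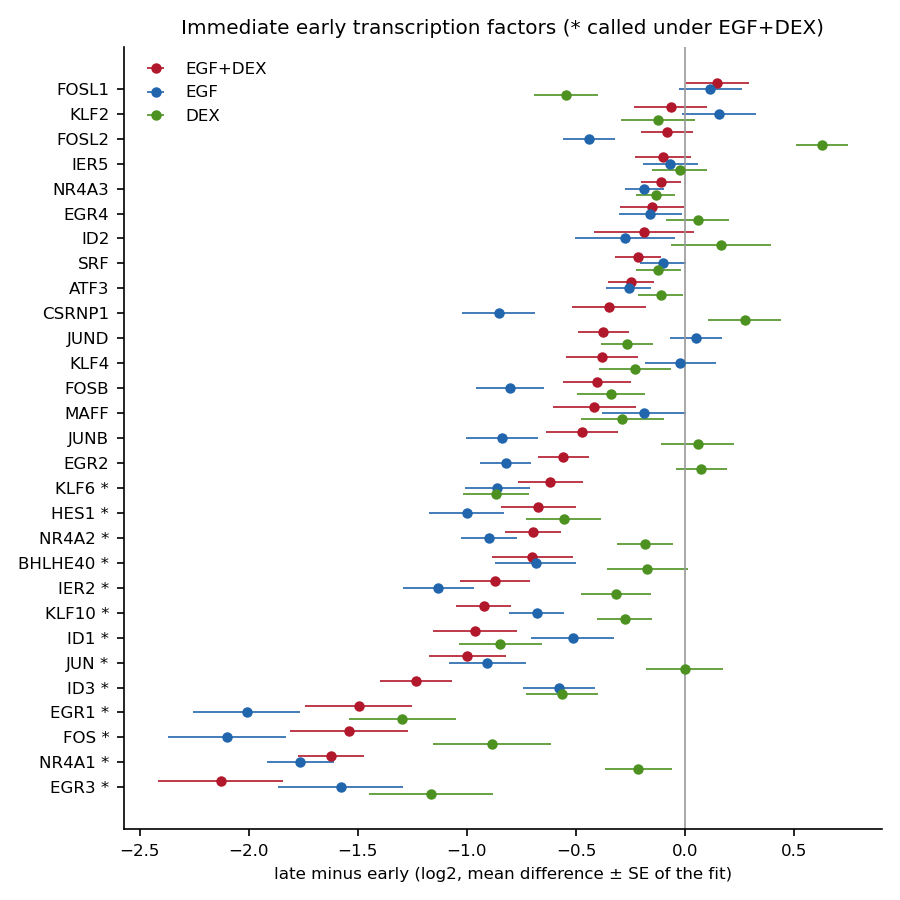
Late minus early difference of the 29 immediate early transcription factors, in log2 units with the SE of the fit, for EGF+DEX, EGF and DEX; genes run from the highest to the lowest EGF+DEX difference and a star marks the 13 called under EGF+DEX. EGR3 is lowest at -2.13 under EGF+DEX, and NR4A1 falls by 1.62 under EGF+DEX and by 1.76 under EGF while it differs by -0.21 under DEX.

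The promoters of genes that moved late are shown because the factors above, and GR itself, bind short DNA words near genes. RefSeq promoters of GRCh38.p14, each the 250 bases before and the 50 bases after a gene's start, matched 128 of the 161 risers, 170 of the 215 fallers and 13021 of the 16600 genes tested. They were searched on both strands for the CArG box, which SRF binds, the AP-1 site TGANTCA, the CRE TGACGTCA, the E-box CACGTG and the palindromic glucocorticoid response element, and neither the AP-1 site nor the CRE contains the other. The shares are descriptions only. They rest on the first promoter listed for each gene, and any other start of a gene was not searched. A CArG box was held by 1 riser (0.781%), 5 fallers (2.94%) and 1.14% of all promoters, and an AP-1 site by 4 risers (3.12%), 14 fallers (8.24%) and 5.14% of all promoters. The E-box was held by 18 risers (14.1%), 11 fallers (6.47%) and 9.35% of all promoters, the CRE by 3 risers (2.34%), 4 fallers (2.35%) and 2.76% of all promoters. The glucocorticoid response element was in no riser, in 2 fallers (1.18%), PPARGC1A among them, and in 0.238% of all promoters.

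Of these promoters, 4 of genes with values in the text are printed 5′ to 3′ on the gene's strand, with every match to the words searched in capitals: EGR1 with 2 CArG boxes, 105 and 83 bases before the start, PPARGC1A with a glucocorticoid response element 162 and an E-box 123 bases before it, SGPP2 with an AP-1 site 63 bases before it, and the clock gene CIART with 3 E-boxes, 129, 71 and 57 bases before it.
EGR1 (chr5:138465229-138465528, + strand): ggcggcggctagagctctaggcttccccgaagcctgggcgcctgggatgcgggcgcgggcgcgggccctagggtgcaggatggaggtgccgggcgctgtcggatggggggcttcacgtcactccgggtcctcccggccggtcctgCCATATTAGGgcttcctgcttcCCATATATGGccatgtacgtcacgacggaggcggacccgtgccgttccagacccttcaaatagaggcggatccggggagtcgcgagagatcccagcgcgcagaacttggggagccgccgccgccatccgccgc
PPARGC1A (chr4:24472856-24473155, - strand): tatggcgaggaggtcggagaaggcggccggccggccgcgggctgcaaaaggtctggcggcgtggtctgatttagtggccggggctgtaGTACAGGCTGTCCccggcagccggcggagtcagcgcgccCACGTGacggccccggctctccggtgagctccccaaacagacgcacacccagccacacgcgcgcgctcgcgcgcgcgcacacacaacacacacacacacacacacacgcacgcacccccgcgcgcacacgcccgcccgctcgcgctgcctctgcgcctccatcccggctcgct
SGPP2 (chr2:222423738-222424037, + strand): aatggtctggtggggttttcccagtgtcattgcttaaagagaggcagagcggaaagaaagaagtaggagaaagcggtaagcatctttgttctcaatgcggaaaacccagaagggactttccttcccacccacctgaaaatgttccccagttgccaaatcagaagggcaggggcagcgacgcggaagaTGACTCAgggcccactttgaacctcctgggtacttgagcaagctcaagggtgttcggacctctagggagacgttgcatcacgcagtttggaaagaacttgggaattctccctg
CIART (chr1:150282304-150282603, + strand): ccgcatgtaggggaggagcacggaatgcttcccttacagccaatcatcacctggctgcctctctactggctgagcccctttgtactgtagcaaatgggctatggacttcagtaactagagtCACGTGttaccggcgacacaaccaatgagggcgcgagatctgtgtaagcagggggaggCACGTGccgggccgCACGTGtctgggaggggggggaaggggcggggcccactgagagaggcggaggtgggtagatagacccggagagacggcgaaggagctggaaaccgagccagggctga

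Among the growth factors that bind EGFR and its relatives, 3 of the 10 ligands of the EGFR family fell late and none rose (median -0.36). HBEGF had 6.55 and 6.68 late, against 7.18, 7.28 and 7.41 early (difference -0.67 ± 0.13, adjusted p = 0.0071). NRG1, neuregulin 1, had 7.38 and 7.30 late, against 7.72, 7.90 and 8.23 early (-0.59 ± 0.11, adjusted p = 0.0033). EPGN, epigen, had 8.18 and 8.27 late, against 8.61, 9.08 and 9.25 early (-0.81 ± 0.20, adjusted p = 0.023), and its untreated arrays had 8.10 and 8.03. All 3 lost their call without the array at 240 min, with adjusted p of 0.0718 for HBEGF, 0.0926 for NRG1 and 0.166 for EPGN, and NRG1 fell short of the fold minimum with no brightness filter (-0.47). NRG1 lost its call in 9 of 38 alternatives, among them the mean of probesets (-0.49), an offset of 16 before log2 (-0.51) and early as 20 and 40 min only (-0.50). HBEGF and NRG1 ended below both untreated arrays, at 6.94 and 7.03 for HBEGF and at 7.85 and 7.88 for NRG1. EREG and TGFA differed by -0.28 (adjusted p = 0.47) and 0.21 (adjusted p = 0.57).

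Of 34 inhibitors of EGFR and ERK signalling, 4 fell and none rose (median -0.10). These were the ubiquitin ligase CBLB, the phosphatases DUSP4 and DUSP5, which act on ERK, and LRIG3, a transmembrane protein. CBLB had 8.20 and 8.33 late, against 8.72, 9.23 and 9.63 early (-0.98 ± 0.18, adjusted p = 0.0032). DUSP4 had 6.93 and 6.83 late, against 7.23, 7.84 and 8.10 early (-0.90 ± 0.15, adjusted p = 0.0015). DUSP1, a phosphatase of MAP kinases, had 11.31 and 11.27 late, against 11.39, 11.51 and 12.05 early, and 9.41 and 9.34 in the untreated arrays, so that every EGF+DEX array lay above them (late minus early -0.34 ± 0.18, adjusted p = 0.36). ERRFI1, which binds the kinase domain of EGFR, differed by -0.11 (adjusted p = 0.64), SPRY4, an inhibitor of RAS signalling, by 0.30 (adjusted p = 0.51), and EGFR itself by 0.03 (adjusted p = 0.95).

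Of 39 GR targets, 4 rose (SCNN1G, ANGPTL4, FKBP5 and GLUL) and 4 fell (GADD45A, TNFAIP3, CDKN1A and PER2), with a median of 0.07. The fallers of this list are a stress gene, a regulator of NF-kB, a cell cycle inhibitor and a clock gene. FKBP5, a chaperone of GR, had 10.80 and 11.41 late, against 9.93, 10.22 and 10.77 early (0.83 ± 0.12, adjusted p = 0.000345). ANGPTL4, an inhibitor of lipoprotein lipase, had 8.78 and 8.92 late, against 6.49, 8.31 and 8.48 early (1.08 ± 0.19, adjusted p = 0.0022), with its low early values, 6.49 and 6.59, both at 20 min. NR3C1, which encodes GR, differed by -0.31 (adjusted p = 0.15).

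Among inflammatory genes more fell than rose, though most did not pass the test. Of 27 cytokines and chemokines 5 fell (TNFSF10, GDF15, IL1B, CXCL2 and CXCL1) and 1, CXCL14, rose, and of 21 NF-kB regulators and targets 4 fell (IER3, TNFAIP3, REL and BCL3) and none rose, with medians of -0.10 and -0.23. IL1B, interleukin 1 beta, had 6.88 and 6.40 late, against 7.47, 7.74 and 8.35 early (-1.22 ± 0.21, adjusted p = 0.0022). CXCL2, a chemokine for neutrophils, had 5.90 and 6.33 late, against 6.76, 7.35 and 7.79 early (-1.13 ± 0.13, adjusted p = 4.4e-05). IER3, an early response gene, had 8.07 and 8.35 late, against 8.81, 9.33 and 9.60 early (-1.07 ± 0.19, adjusted p = 0.0027).

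Ribosome biogenesis had 4 risers of 28 and no faller, with the highest median of the lists (0.35). The risers, LYAR, WDR3, RCL1 and RRS1, act in the nucleolus, and their differences ran from 0.59 to 0.77. LYAR had 7.49 and 7.78 late, against 6.14, 6.79 and 7.57 early (0.77 ± 0.15, adjusted p = 0.0064), and the second array at 60 min, 7.57, lay above the array at 120 min. None of 24 genes of DNA replication and 24 of mitosis was called in either direction (medians 0.20 and 0.13). Nor was any of the 9 members of the metallothionein list, MTF1 included, or of 24 genes of ATF4, its targets and amino acid transport (medians 0.22 and -0.12).

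Of 21 circadian clock genes, 2 rose and 2 fell. NPAS2, a partner of BMAL1, had 7.55 and 8.08 late, against 6.41, 6.61 and 7.0 early (1.18 ± 0.11, adjusted p = 4.91e-06). CIART, a repressor of the CLOCK and BMAL1 pair, had 7.63 and 7.82 late, against 6.66, 7.01 and 7.28 early (0.72 ± 0.11, adjusted p = 0.00082). PER2 and BHLHE40, which act against the same pair, fell by 0.63 and 0.70, and BHLHE40, at 7.28 and 7.61 late, overlapped its second early array at 60 min (7.56).

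Metabolic and insulin genes moved in both directions. Of 22 genes of fuel switching and lipid oxidation ANGPTL4 and GLUL rose and PPARGC1A, SLC2A1 and ARRDC4 fell. SLC2A1, the glucose transporter GLUT1, differed by -0.71 ± 0.11 (adjusted p = 0.0011). Of 25 genes of insulin signalling PIK3R1 rose, with 10.61 and 10.89 late against 9.63, 9.93 and 10.49 early (0.73 ± 0.10, adjusted p = 0.00032), and PIK3R3, SESN3, GAB1 and PHLDA1 fell. Of 35 genes of migration and matrix proteolysis PLAU, PLAT, CCN1 and CCN2 fell, and LOX, which crosslinks collagen (0.90 ± 0.14, adjusted p = 0.00089), and ZEB2, a repressor of E-cadherin (0.93 ± 0.15, adjusted p = 0.0015), rose. Of 15 ion transport genes SCNN1G alone was called. Single genes also fell in 4 other lists: SREBF1, the sterol-regulated factor SREBP1, fell (-0.64), as did the cell cycle inhibitor CDKN1A (-0.83), the interferon-stimulated gene IFIT3 (-1.31, at 4.37 and 3.32 late and 4.06, 5.36 and 5.94 early, below the 75th percentile of probesets with no gene) and, among the basal markers, TP63 (-0.94), which encodes p63, the factor that maintains basal epithelium. TP63 had 9.27 and 8.89 late, against 9.83, 10.01 and 10.26 early (adjusted p = 0.000138).

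**Figure D4:**
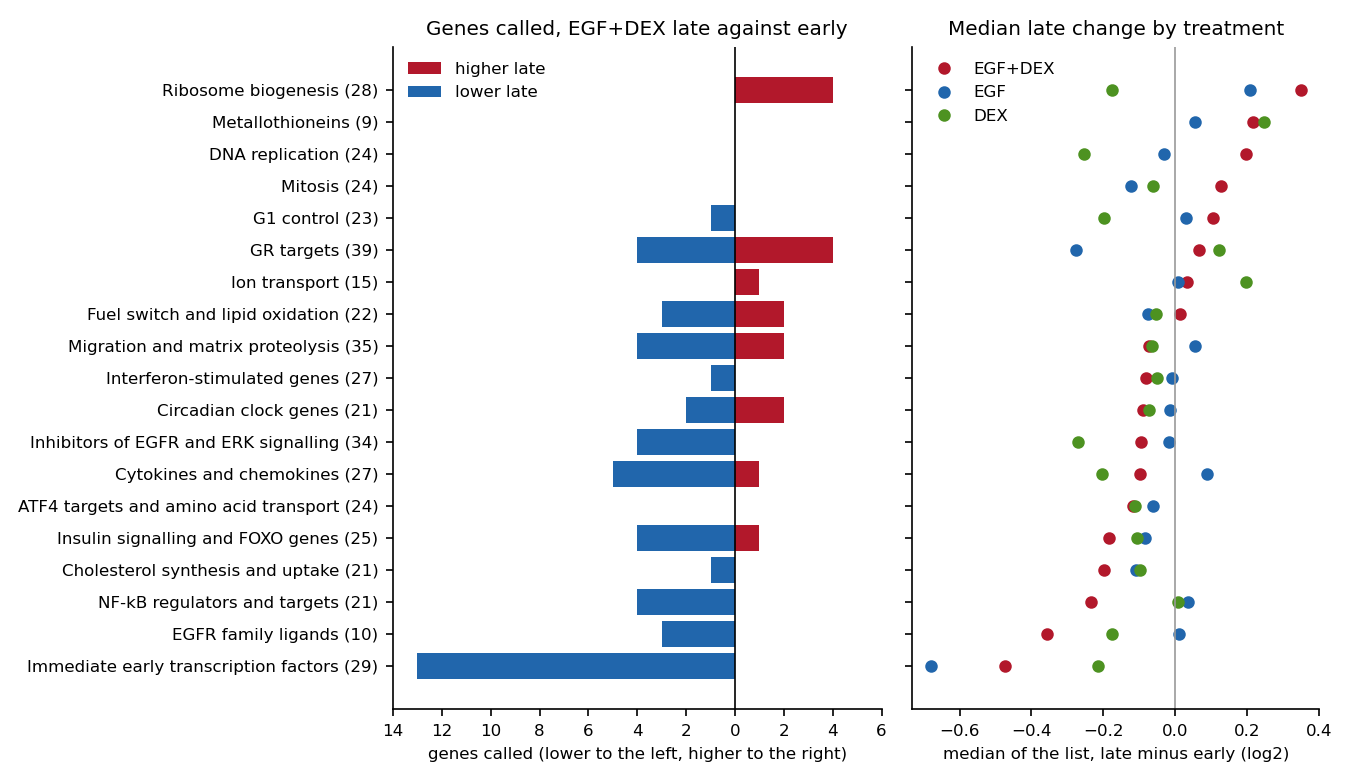
Gene lists with the number of measured members in parentheses; left, genes called lower (bars to the left) and higher (bars to the right) late under EGF+DEX, and right, the median late minus early difference of each list in log2 units under EGF+DEX, EGF and DEX. Immediate early transcription factors have 13 genes called lower and none higher, and ribosome biogenesis has 4 higher and none lower.

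Set beside each agent alone, the late risers of EGF+DEX held more genes called under DEX than under EGF. Under EGF alone 22 genes rose (0.133%) and 55 fell (0.331%) late, and under DEX alone 192 rose (1.16%) and 197 fell (1.19%). The 3 sets share no arrays. Of the 161 risers 73 also rose under DEX (45.3% of the risers and 38% of those of DEX) and 4 under EGF (2.48% and 18.2%), and 84 rose under neither. Of the 215 fallers 79 also fell under DEX (36.7% and 40.1%), 30 under EGF (14% and 54.5%) and 11 under both, and 117 fell under neither. A gene not called under one agent is not thereby shown to differ from EGF+DEX, and the differences were tested as follows.

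**Figure D5:**
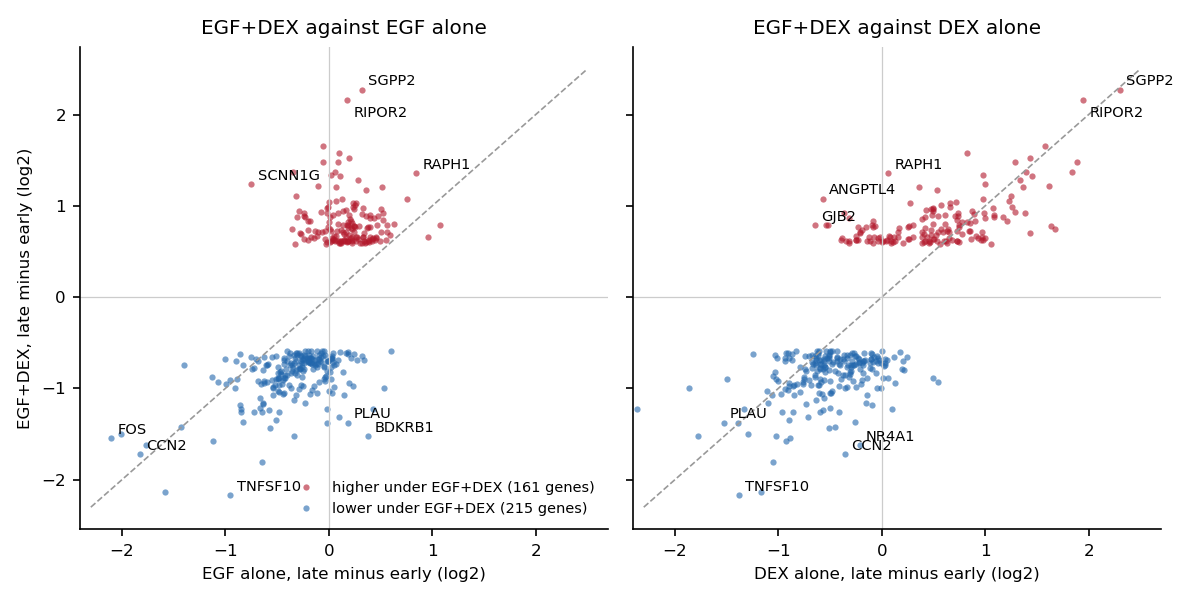
Late minus early difference under EGF+DEX against that under EGF alone (left) and DEX alone (right), in log2 units, for the 376 genes called under EGF+DEX; the dashed line marks equal differences. SGPP2 and RIPOR2 lie near the line for DEX and near 0 for EGF (2.30 and 1.95 under DEX, 0.32 and 0.18 under EGF), and CCN2 and NR4A1 lie near 0 for DEX (-0.36 and -0.21).

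Against EGF alone, the late change under EGF+DEX was higher for 62 genes (0.373%) and lower for 39 (0.235%). The genes higher were led by SCNN1G, RIPOR2, SGPP2, SULT1E1 and TMEM63C, and those lower by BDKRB1, IL1B, PLAU, AMIGO2 and CYP1B1. SCNN1G had 5.11 and 5.28 late under EGF alone, against 5.73, 6.01 and 6.09 early, so that it fell under EGF while it rose under EGF+DEX (difference between the treatments 1.99 ± 0.20, adjusted p = 4.9e-05). SGPP2 had 7.47 and 7.12 late under EGF alone, against 6.66, 6.97 and 7.18 early (difference 1.95 ± 0.17, adjusted p = 1.8e-05). PLAU had 8.57 and 8.28 late under EGF alone, against 7.75, 8.28 and 8.59 early (difference -1.56 ± 0.19, adjusted p = 0.00044). IL1B had 8.68 and 8.23 late under EGF alone, against 7.66, 7.91 and 8.50 early, and its difference (-1.64 ± 0.30, adjusted p = 0.013) lost its call without the array of EGF at 120 min (adjusted p = 0.13).

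Of the 39 GR targets 10 were higher in this comparison and none lower (median 0.33), where 0.373% of all genes were higher. Under EGF alone 8 of the 39 fell late and none rose (median -0.28), where 0.331% of all genes fell. DUSP1, ZBTB16, PDK4, TXNIP, SCNN1G and ZFP36 were both among these 8 and among the 10. Under EGF+DEX the median of the list was 0.07, so the comparison reflects the fall under EGF as well. DUSP1 was among the 10. It had 9.08 and 9.41 late under EGF alone, against 9.82, 10.79 and 11.64 early (difference 1.24 ± 0.26, adjusted p = 0.033). TSC22D3, which encodes the glucocorticoid-induced leucine zipper, had 6.71 and 6.87 late under EGF alone, against 6.95, 7.22 and 7.40 early (difference 0.97 ± 0.14, adjusted p = 0.0019). Its late arrays under EGF+DEX had 8.91 and 8.96. NRG1 had 8.49 and 8.79 late under EGF alone, above all its early arrays (7.98 to 8.11), and fell under EGF+DEX (difference -1.20 ± 0.15, adjusted p = 0.00062). IRS1, an adaptor of the insulin receptor, had 7.91 and 7.56 late under EGF alone, against 6.89, 6.96 and 7.13 early, and 6.38 and 6.13 late under EGF+DEX (difference -1.18 ± 0.13, adjusted p = 0.00016). IRS1, TSC22D3, FKBP5, ID1, ID3, CCND1, SPRY1 and SPRED1, and other list members beyond the largest changes, were singled out after their values were seen.

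Among the 10 genes with the largest differences from EGF, IL1B, AMIGO2, BDKRB1 and CYP1B1 lost their call without the EGF+DEX array at 240 min (adjusted p from 0.0527 to 0.224). With early taken as 60 min only these 4 and SCNN1G (1.18, adjusted p = 0.125), SULT1E1 (1.15, adjusted p = 0.162) and PLAU (-0.96, adjusted p = 0.314) lost theirs, 7 of the 10. Without that array 21 genes were higher and 8 lower than under EGF. The immediate early factors had no gene called in this comparison (median 0.03), with differences of 0.56 ± 0.38 for FOS, 0.51 ± 0.35 for EGR1 and 0.14 ± 0.21 for NR4A1.

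Against DEX alone, the late change was higher for 43 genes (0.259%) and lower for 20 (0.12%). This comparison rested on the single DEX array at 240 min: without it limma called no gene in either direction, and all 10 genes with the largest differences lost their call (adjusted p from 0.163 to 0.396). Without the EGF+DEX array at 240 min 12 genes were higher and 12 lower than under DEX, and without that at 120 min 37 and 8. The genes higher were led by ANGPTL4, HMGA2, GJB2, MIRHG1 and RAPH1. RAPH1 had 7.69 and 7.03 late under DEX alone, against 7.01, 7.26 and 7.68 early, and its rise under EGF+DEX was larger by 1.30 ± 0.16 (adjusted p = 0.0031). GJB2, the gap junction protein connexin 26, had 8.40 and 8.50 late under EGF+DEX, against 7.36, 7.51 and 8.24 early, and 7.05 and 6.26 late under DEX alone, against 6.94, 7.34 and 7.58 early (difference 1.43 ± 0.22, adjusted p = 0.013). MIRHG1, a symbol that RefSeq lists as a synonym of MIR17HG and of several miRNAs of the same cluster, differed by 1.30 ± 0.25 (adjusted p = 0.027).

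The genes lower than under DEX were led by NR4A1, SPDYA, CCN2, BEST2 and CREBRF. CCN2 had 7.19 and 7.44 late under DEX alone, against 7.47, 7.60 and 8.12 early, and its early arrays under EGF+DEX all lay above these (difference -1.36 ± 0.19, adjusted p = 0.0069). BEST2, a bestrophin chloride channel, had 6.34 and 7.24 late under DEX alone, against 4.83, 5.02 and 5.38 early, and 5.52 and 5.85 late under EGF+DEX, against 4.90, 5.16 and 5.54 early (difference -1.25 ± 0.18, adjusted p = 0.0072). SLCO2A1, which rose under both, differed by 0.76 ± 0.16 and did not pass (adjusted p = 0.051).

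A few genes of growth and division were higher in this comparison. Ribosome biogenesis had a median of 0.60 with 1 gene called (DKC1), DNA replication a median of 0.45 with 1 called (MCM10), and G1 control 3 called higher (CCND1, CCNE1 and CCNE2) of 23, with a median of 0.19, against 0.00 over all genes. CCND1, cyclin D1, had 8.80 and 8.84 late under EGF+DEX, against 8.06, 8.29 and 8.69 early, and 8.20 and 7.63 late under DEX alone, against 8.10, 8.27 and 8.63 early (difference 0.88 ± 0.19, adjusted p = 0.0498). Within EGF+DEX alone CCND1 differed by 0.51 ± 0.13 and did not reach the fold minimum. The late change of SPRY1 and SPRED1, inhibitors of RAS and ERK signalling, was also higher than under DEX (1.05 ± 0.15 and 1.22 ± 0.20, adjusted p = 0.011 and 0.014). Both fell under DEX alone, and neither was called under EGF+DEX. SPRY1 had 6.66 and 6.56 late under EGF+DEX (early median 6.50), and 6.14 and 5.99 late under DEX alone (7.07). SPRED1 had 7.82 and 7.68 (7.48), and 6.57 and 6.28 (7.36). Of the 34 inhibitors, 11 fell late under DEX alone and none rose, where 1.19% of all genes fell.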

How the data were processed

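Gene expression was measured on 26 human exon arrays (Affymetrix, Exon 1.0 ST) of MCF10A cells. The authors summarised the scans with Expression Console and deposited linear intensity values for 844005 probesets. Its summary method and version were not given in the sources used. The values were taken to log2 with no further normalization, since the quartiles of the arrays differed by less than 0.1. Probesets with 1 gene symbol and a level above the median of probesets with no gene (4.65) were kept (262233), and genes with at least 3 of them were summarised by Tukey median polish, which left 16600 genes. Principal components were taken over the tenth of the genes with the highest variance. Between 61.1% and 62.7% of probesets lay above that level on each array. The number of arrays limits the precision.

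Group means of the 16 groups were fitted on all 26 arrays with limma 3.58.1 in R 4.3.3, with Benjamini-Hochberg adjustment over all genes. Late is the mean of 120 and 240 min, early the mean of 20, 40 and 60 min. The spread came from the 10 groups of 2 arrays. The genes named are the 15 largest rises and falls whose late arrays lay beyond all early arrays. The 5 largest differences each way from EGF and from DEX were added, as were up to 4 called members of each gene list. A further list of genes, many but not all of them named in the study's text, was also included. Others were chosen after their values were seen. The gene lists and members were chosen with earlier results of these data known. The procedure was run on simulated data with independent normal noise for each gene and shifts planted in the late EGF+DEX arrays. Those data held no array or batch effect and gave the lone late arrays the same spread as the others. They therefore cannot show how the calls behave under such effects. Correlations of same-numbered deviations ran from -0.20 to 0.31, with a median of 0.03. These values do not settle whether replicate numbers pair the samples, and the main fit held no replicate term. Every late array carries the same replicate number, while the early arrays carry both numbers. A batch that followed the replicate number would therefore be partly mixed with the late minus early difference. Alternatives covered the summary, filters, offset, normalization, fold minimum, prior, definition of early, and each array left out.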

Additional observations from a re-analysis of the deposited data

Results flagged for a closer look

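Single early arrays stood apart from the other 5 of EGF+DEX in 2 of the 94 named genes, by the gap to the nearest array over the whole range (Dixon's rule, which chance passes in about 1 of 20 groups). EPGN had 8.61 in the second array at 20 min, against 9.02 to 9.25 in the others, and BHLHE40 had 7.56 in the second array at 60 min, against 8.18 to 8.45.

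Among the named genes, the late change under EGF+DEX was higher than under EGF alone, by the interaction term of limma in log2 units, for SCNN1G (1.99), RIPOR2 (1.98), SGPP2 (1.95), SULT1E1 (1.72), TMEM63C (1.71), ETNK2 (1.54), SLCO2A1 (1.48), ABLIM3 (1.39), PXYLP1 (1.33), NEXN (1.33), KDR (1.31), RPS6KA2 (1.31), DUSP1 (1.24), PLD5 (1.22), ZEB2 (1.01), IL1R1 (1.00), GLUL (0.96), NPAS2 (0.82) and PIK3R1 (0.76). It was lower for BDKRB1 (-1.90), IL1B (-1.64), PLAU (-1.56), AMIGO2 (-1.53), CYP1B1 (-1.36), NRG1 (-1.20), TP63 (-1.14), PHLDA1 (-0.87), GDF15 (-0.86) and LRIG3 (-0.70).

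Against DEX alone it was higher for ANGPTL4 (1.65), HMGA2 (1.62), GJB2 (1.43), MIRHG1 (1.30) and RAPH1 (1.30), and lower for NR4A1 (-1.41), SPDYA (-1.38), CCN2 (-1.36), BEST2 (-1.25), CREBRF (-1.23), VAV3 (-1.11), REL (-1.02) and GDF15 (-0.92). GDF15 was the gene of these that differed from both agents in the same direction. The comparison with DEX rested on the single DEX array at 240 min. At 120 min GDF15 had 6.90 under EGF+DEX and 6.89 under DEX alone, and at 240 min 6.59 and 7.54.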

How the results depend on the processing

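Counts below give genes higher, then lower, against 161 and 215 for EGF+DEX late minus early. That count became 371 and 373 with no fold minimum, 26 and 45 at 2-fold, 51 and 66 with late and early fitted as 2 groups on the arrays of the treatment alone, 44 and 38 with early as 60 min only, and 326 and 342 with early as 20 and 40 min only. From 120 to 240 min, 1 and 1 were called with a trended, robust prior and 1 higher with an offset of 16. The comparison with EGF (62 and 39) gave 26 and 16 at 2-fold, 14 and 15 as 2 groups, and 6 and 2 with early as 60 min only. The comparison with DEX (43 and 20) gave 28 and 8 with no brightness filter, 81 and 36 with a stricter one, 71 and 34 with the trended prior, 31 lower with the offset, 14 and 8 at 2-fold, 0 and 0 both as 2 groups and with early as 60 min only, and 198 and 62 with early as 20 and 40 min only. EGF alone (22 and 55) gave 36 lower with no brightness filter, 12 higher with the mean of probesets, 40 higher with no fold minimum, 2 and 13 at 2-fold, 3 and 4 as 2 groups, 4 and 12 with 60 min only, and 38 higher with 20 and 40 min only. DEX alone (192 and 197) gave 130 lower with the offset, 351 and 410 with no fold minimum, 34 and 28 at 2-fold, 123 and 103 as 2 groups, 125 and 73 with 60 min only, and 300 lower with 20 and 40 min only. The cause was not tested.

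With each array left out in turn, EGF+DEX late minus early gave 54 to 354 higher and 76 to 262 lower, 240 against 120 min gave 0 to 2 higher and 0 to 2 lower, the comparison with EGF 21 to 71 and 8 to 53, that with DEX 0 to 85 and 0 to 35, EGF alone 11 to 26 and 12 to 65, and DEX alone 88 to 249 and 42 to 394. The replicate number as a block gave 166 higher and 288 lower for EGF+DEX. Quantile normalization moved the median of all genes by less than 0.1.

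Of 107 gene results, 73 changed their call or sign under at least 1 alternative. Signs turned only in genes that were not called: with the replicate block in ELK4 (-0.0101), EGFR (-0.0158) and SULF1 (-0.029), with no brightness filter in ELK4 (-0.027), with the stricter one in ERBB4 (-0.0128), with early as 60 min only in ZFP36L2 (-0.021), TGFA (-0.0442), SPRY4 (-0.338) and ELK4 (-0.0647), and with early as 20 and 40 min only in ERRFI1 (0.0237). With arrays left out, EGFR ran from -0.242 to 0.301, ELK1 from -0.008 to 0.255, ELK4 from -0.0114 to 0.0607, ERBB4 from -0.0098 to 0.0644, MAOA from -0.0085 to 0.326 and SULF1 from -0.0072 to 0.156.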
